A study of Mus musculus with 93 samples.

Results

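The oldest mice of the series were untreated males of 18 months, and their cerebral cortex was compared between Chd8 V986*/+ and WT animals. They were chosen by their age label, which holds 11 of the 93 libraries: 6 from WT and 5 from Chd8 V986*/+ mice. Each library was bulk polyA RNA from the cortex of one hemisphere of 1 mouse. In the study's breeding scheme C57BL/6J WT dams were mated with Chd8 V986*/+ sires, and all 11 mice belonged to batch 4 and had the same dissector. They were unexposed, whereas dams of the other mice ate peanut butter with oil or with the pyrethroid insecticide deltamethrin (DM), until weaning for the mice kept to 12 months and until dissection for the pups. The V986* allele is a nonsense mutation carried in the germline, so every cell type of the mutants has 1 mutant and 1 WT copy. By the litter labels, litters 1, 5, 6 and 7 gave both genotypes, litter 2 gave only a WT mouse and litter 3 only a mutant, and litter 7 gave 2 WT mice, although the methods describe 1 male of each genotype per litter.

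CHD8 is a chromodomain helicase, an enzyme that uses ATP to move nucleosomes, and it is found mainly at active promoters. Loss of 1 copy of the human gene is among the most frequent single-gene findings in autism, often with a large head. In development CHD8 is known for its part in Wnt signaling, the cell cycle and the expression of other chromatin genes. Less is known of a cortex that has lived with 1 copy into old age, which is the question this comparison addresses.

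The deposited values are variance-stabilised and on a log2 scale. They run from 7.204, where the lowest genes lie, to 16.72, and near the lower end the scale shrinks differences. Of 24528 genes, 5871 had the same value in all 11 mice and 18657 were tested with limma, with genotype and the rank of the litter in the model. The table holds no read counts, so depth per mouse and its counting error are unknown, and the number of mice limits the precision. Markers fitted the labels. Slc17a7 and Camk2a, of excitatory neurons, lay at 14.42 or more in every mouse, the Y-linked Ddx3y at 11.3 or more and the female-specific Xist at 7.67 or less. In bulk tissue, fewer cells of a type and less RNA per cell cannot be told apart.

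The V986* allele replaces a valine codon of Chd8 with a stop. On mm10 the codon lies at chr14:52218272-52218274 on the minus strand, in exon 14 of 37 of the GENCODE transcript used here, which has 2582 codons. It is shown with 30 bases of reference on either side, the codon in capitals, because it is the only designed difference between the groups.
Chd8 around the valine codon, reference: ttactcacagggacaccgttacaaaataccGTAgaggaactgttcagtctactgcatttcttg

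Chd8 was the most clearly changed gene of the old cortex. The gene (mm10 chr14:52198151-52257780) had deposited values of 11.24, 11.24, 11.33, 11.22 and 11.15 in the 5 mutants and of 11.70 to 11.81 with a median of 11.76 in the 6 WT mice. Every mutant lay below every WT mouse, and the gap between the groups was wider than the range of either. Chd8 fell by 0.51 (SE 0.03, limma adjusted p = 1.4e-06), to 70.1% of the WT level when the scale is read as log2 (95% confidence interval 66.7 to 73.7%). Within litters 1, 5, 6 and 7 the mutant was −0.56, −0.42, −0.49 and −0.61 from its WT littermates. With litter as a factor (replicate block) the difference was −0.53 and narrowly missed the threshold (limma adjusted p = 0.051), with 4 residual degrees of freedom left. None of the 9 other remodelers of the CHD family passed. Chd5 and Chd3, which belong to the NuRD repressor family, lay closest to it at −0.09 and −0.07 (limma adjusted p = 0.31 for each).

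Few genes were called besides Chd8, and each differed by less. limma called 20 of 18657 genes, 0.107% of those tested, 9 of them higher and 11 lower (0.0482% and 0.059%), with absolute differences of 0.17 to 0.51. At an unadjusted p under 0.05 there were 2131 genes, 929 higher and 1202 lower. Over all genes tested 9357 differences were above 0 and 9300 below it, with a median of 0.00018, against which the gene lists below are read. All 20 called genes kept the mutants and the WT mice apart without overlap, as did 2.15% of all genes, and all 20 differed in 1 direction in litters 1, 5, 6 and 7, as did 18.2% of all genes. The model that pairs littermates through litter as a factor (replicate block) called 0 genes, against 2264 at an unadjusted p under 0.05. In it the 20 genes kept their direction, with absolute differences of 0.18 to 0.53. Their unadjusted limma p was under 0.05 for 20 of 20, but adjusted p ran from 0.051 to 0.34. The 20 were picked on these same mice, so direction and unadjusted p in such refits are no separate support. The same values with litter as a random effect called 38 genes, all 20 included, and genotype alone called 75.

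**Figure D1:**
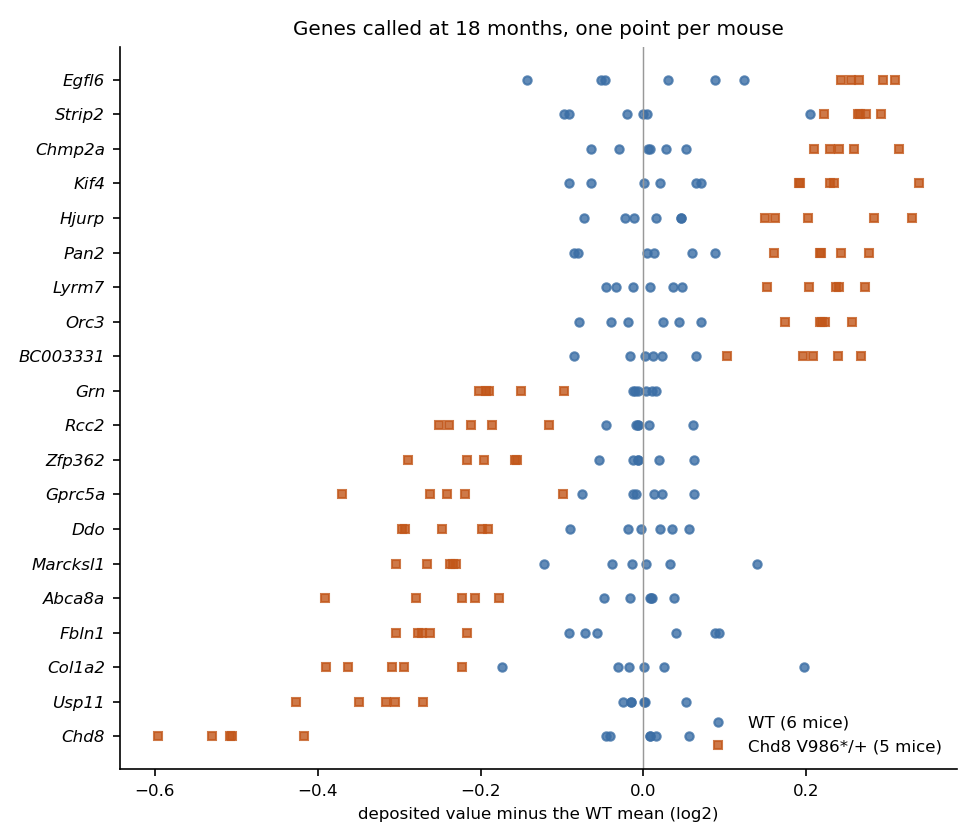
Deposited values of the 20 called genes, each mouse minus the WT mean of that gene on the log2 scale, with circles for the 6 WT and squares for the 5 Chd8 V986*/+ mice. In no gene do squares and circles overlap, and the gap is widest for Chd8, where mutants lie from −0.60 to −0.42.

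The 3 genes with the lowest adjusted p were also those called most often when mice were left out. Chd8 and Usp11 were called without any 1 of the 11 mice, and Chmp2a in 9 of 11 such fits (adjusted p up to 0.053). It missed the threshold without HET replicate 1 or WT replicate 5. Of the rest, 6 were called in 1 of the 11 fits and 11 in none. The 20 genes had an unadjusted p under 0.05 in each, but they were picked on these same mice. Each fit called 2 to 6 genes.

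Usp11 encodes a deubiquitinating enzyme with roles in DNA repair and is X-linked (mm10 chrX:20703906-20720539), so these males carry 1 copy. Its value was 11.70, 11.78, 11.73, 11.74 and 11.62 in the mutants and 12.02 to 12.10 with a median of 12.04 in WT mice. The mutants lay below all WT mice. It fell by 0.33 (SE 0.03, limma adjusted p = 1.2e-04), to 79.3% of WT (95% confidence interval 75.7 to 83.1%), with a difference of −0.36 under the replicate block (adjusted p = 0.078).

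Chmp2a (mm10 chr7:13032010-13034807) encodes a subunit of ESCRT-III, the filament that cuts membrane necks in endosomes, at the end of cell division and in the closing of autophagosomes. Mutants had 10.99, 10.96, 11.07, 11.01 and 10.98 and WT mice 10.69 to 10.81 with a median of 10.76. Again no mutant reached the WT range, here from above. The gene rose by 0.25 (SE 0.03, limma adjusted p = 0.005), to 119% of WT (95% confidence interval 114 to 125%). Its 4 within-litter differences were nearly alike, at 0.30, 0.26, 0.25 and 0.24 (replicate block 0.26, adjusted p = 0.093). Of 14 genes of ESCRT-III and its ATPase VPS4 it was the only one called, beside 0.107% of all genes tested. The other 13 lay between −0.09 and 0.10, among them Chmp2b, its sister subunit and a gene of frontotemporal dementia in humans, at 0.01. The list median was 0.014.

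**Figure D2:**
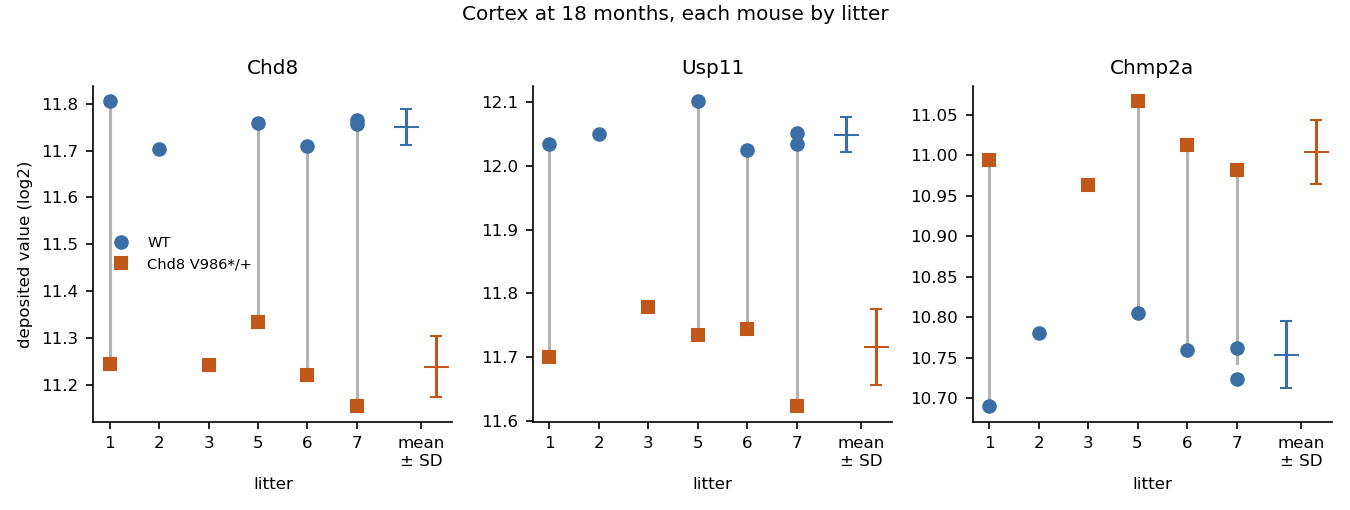
Deposited log2 values of Chd8, Usp11 and Chmp2a in each mouse by litter, circles for WT and squares for Chd8 V986*/+, with grey lines joining littermates and the group mean ± SD at the right. In litters 1, 5, 6 and 7 each mutant lies below its WT littermates for Chd8 and Usp11 and above them for Chmp2a.

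The promoters of these 3 genes, 300 bases around each RefSeq start on GRCm38.p6, differ in makeup. They are shown because CHD8 is known for binding near active starts. Capitals mark 3 motifs searched on both strands: the ETS motif CCGGAAG, the GC box GGGCGG and the NRF1 core CGCATGCG, which reads the same on either strand.
Chd8, chr14:52257711-52258010, minus strand: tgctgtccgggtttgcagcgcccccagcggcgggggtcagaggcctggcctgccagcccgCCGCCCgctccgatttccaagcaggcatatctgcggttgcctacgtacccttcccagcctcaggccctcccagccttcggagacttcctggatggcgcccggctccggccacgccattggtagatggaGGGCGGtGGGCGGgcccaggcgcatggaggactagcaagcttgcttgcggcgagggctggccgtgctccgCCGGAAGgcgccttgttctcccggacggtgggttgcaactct
Usp11, chrX:20703659-20703958, plus strand: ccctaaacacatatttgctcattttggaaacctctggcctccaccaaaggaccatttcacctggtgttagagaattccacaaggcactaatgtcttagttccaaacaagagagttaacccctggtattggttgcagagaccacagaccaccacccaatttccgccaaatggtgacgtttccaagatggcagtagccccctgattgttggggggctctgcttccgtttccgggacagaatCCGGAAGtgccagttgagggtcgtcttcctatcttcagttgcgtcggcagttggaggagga
Chmp2a, chr7:13034728-13035027, minus strand: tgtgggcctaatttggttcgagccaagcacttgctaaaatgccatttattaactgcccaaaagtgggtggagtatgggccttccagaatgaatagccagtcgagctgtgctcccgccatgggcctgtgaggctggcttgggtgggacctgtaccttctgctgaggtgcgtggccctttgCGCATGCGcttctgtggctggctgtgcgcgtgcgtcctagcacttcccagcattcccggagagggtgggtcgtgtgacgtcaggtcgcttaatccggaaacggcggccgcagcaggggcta
Chd8 has 26 CpG dinucleotides in the window, Chmp2a 17 and Usp11 8. Chd8 holds 1 ETS motif and 3 GC boxes, Usp11 1 ETS motif and Chmp2a 1 NRF1 core. Of the 14216 tested genes with such a window, 14.2% hold the ETS motif, 55.9% the GC box and 3.11% the NRF1 core. Among the called genes with a window the ETS motif stood in 3 of 8 higher and 2 of 9 lower genes and the GC box in 4 and 5, a description of few genes.

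Among the genes that rose were 3 with work in chromosome duplication and segregation. Orc3 encodes a subunit of the origin recognition complex, which marks where DNA replication begins. The mutants had 10.65, 10.64, 10.64, 10.60 and 10.68 and WT mice 10.34 to 10.49 with a median of 10.43, a rise of 0.22 (SE 0.03, limma adjusted p = 0.029). Hjurp, the chaperone that loads the centromeric histone, was 10.05, 9.93, 9.92, 10.10 and 9.97 in mutants and 9.70 to 9.81 in WT mice and rose by 0.23 (SE 0.04, limma adjusted p = 0.047). The X-linked Kif4 encodes a chromosome-bound kinesin of mitosis. It lay low in both groups, at 8.19 to 8.34 in mutants and 7.91 to 8.07 in WT mice, and rose by 0.24 (SE 0.04, limma adjusted p = 0.039). Rcc2, whose product is also needed in mitosis, moved the other way. It was 11.13, 11.11, 11.25, 11.18 and 11.15 in mutants and 11.32 to 11.43 in WT mice and fell by 0.20 (SE 0.03, limma adjusted p = 0.029). Of 24 genes of replication origins and centromeres, 2 were called higher and 1 lower, beside 0.107% of all genes tested. The list was chosen with earlier results of these data known, so its count is a description only. Counting uncalled members, 19 were above 0 and 5 below it, around a median of 0.0376 (0.0234 with the replicate block, 0.0221 without HET replicate 5, 0.025 without WT replicate 2 and 0.081 over members with a mean of at least 9). The mean level of the list ran from 9.05 to 9.07 in WT mice and from 9.09 to 9.12 in mutants.

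The other genes that rose have no list in common. Egfl6, an X-linked gene of a secreted protein with EGF repeats, was 8.59, 8.54, 8.53, 8.52 and 8.57 in mutants, which lay close together, and spread over 8.14 to 8.40 in WT mice. It rose by 0.27 (SE 0.05, limma adjusted p = 0.033). Strip2, which encodes a part of the STRIPAK phosphatase complex, was 11.12 to 11.19 in mutants and 10.80 to 11.10 in WT mice, where WT 3 lay far above the next mouse at 10.90. It rose by 0.26 (SE 0.05, limma adjusted p = 0.042), and by 0.30 without WT replicate 3. Lyrm7, an assembly factor of respiratory complex III, was 9.22 to 9.34 in mutants and 9.02 to 9.12 in WT mice and rose by 0.22 (SE 0.04, limma adjusted p = 0.029). Pan2, the catalytic subunit of a deadenylase that shortens poly(A) tails, was 9.67 to 9.79 in mutants and 9.43 to 9.60 in WT mice and rose by 0.22 (SE 0.04, limma adjusted p = 0.047). BC003331 was 10.61 to 10.78 in mutants and 10.43 to 10.58 in WT mice and rose by 0.20 (SE 0.04, limma adjusted p = 0.048).

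Among the genes that fell, Grn has the best known link to disease of the aging brain. It encodes progranulin, a secreted protein that reaches the lysosome, and loss of 1 human copy causes frontotemporal dementia. WT mice lay at 10.80 to 10.83, the narrowest WT range among the called genes, and mutants at 10.62, 10.67, 10.72, 10.63 and 10.61. Grn fell by 0.17 (SE 0.03, limma adjusted p = 0.047), to 89.1% of WT. It was the only one called of 40 lysosomal genes, beside 0.107% of all genes tested. Of the 40, 27 were lower and 13 higher, with a median of −0.0261. Psap, whose product prosaposin travels with progranulin, differed by −0.09 (limma adjusted p = 0.15), and Gaa, the lysosomal enzyme that breaks down glycogen, by −0.20 (adjusted p = 0.18). Grn was also the only one called of 38 tested genes of inherited neurodegenerative disease, with 25 lower, 13 higher and a median of −0.0291. Uchl1, a neuronal ubiquitin hydrolase, lay at −0.15 and App, the amyloid precursor gene, at −0.08 (adjusted p = 0.17 and 0.20).

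Other genes that fell work in metabolism, lipid transport and the cell cortex. Ddo, which encodes the oxidase of D-aspartate, was 8.54, 8.65, 8.59, 8.64 and 8.55 in mutants and 8.75 to 8.90 with a median of 8.85 in WT mice and fell by 0.25 (SE 0.04, limma adjusted p = 0.029). Abca8a, a transporter gene of the ABCA lipid family, was 9.49, 9.48, 9.42, 9.52 and 9.31 in mutants and 9.65 to 9.73 in WT mice. It fell by 0.26 (SE 0.04, limma adjusted p = 0.029). Marcksl1, a regulator of actin beneath the membrane, was 9.55 to 9.63 in mutants and 9.73 to 9.99 in WT mice and fell by 0.25 (SE 0.04, limma adjusted p = 0.033). The zinc finger gene Zfp362 was 9.14 to 9.27 in mutants and 9.37 to 9.49 in WT mice and fell by 0.20 (SE 0.04, limma adjusted p = 0.047). Gprc5a, an orphan receptor gene induced by retinoic acid, lay near the floor of the scale. It was 7.33 to 7.61 in mutants and 7.63 to 7.77 in WT mice and fell by 0.24 (SE 0.04, limma adjusted p = 0.042).

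Genes of connective tissue around the cortex lay lower in the mutants. Col1a2, a chain of type I collagen, was 9.02, 8.95, 8.93, 8.88 and 8.85 in mutants and 9.06 to 9.44 with a median of 9.23 in WT mice and fell by 0.32 (SE 0.05, limma adjusted p = 0.039). Fbln1, a glycoprotein of the extracellular matrix, was 8.63, 8.58, 8.57, 8.57 and 8.54 in mutants and 8.75 to 8.94 with a median of 8.84 in WT mice and fell by 0.27 (SE 0.04, limma adjusted p = 0.029). Of 26 markers of meningeal fibroblasts, the cells of the membranes over the brain, 24 lay lower and 2 higher. Col1a2 alone was called, beside 0.107% of all genes tested. At an unadjusted limma p under 0.05, 19 were lower and 0 higher, beside 1202 lower and 929 higher of 18657 genes. The median was −0.165, the lowest of all lists. Ptgds, which encodes a prostaglandin D synthase, differed by −0.36 (limma adjusted p = 0.083) and Fmod, a collagen-binding proteoglycan, by −0.34 (0.15). Members ran from −0.36 to 0.25. Members of lists named without a call, here and in the other lists, were chosen after their values were seen. The mean level of the markers was 9.16 to 9.46 in WT mice and 9.10 to 9.22 in mutants. Only WT 3, at 9.16, reached the range of the mutants, and the next WT mouse lay at 9.24. How much of the membrane stayed on each cortex is not given in the sources used here. Because the mean level nearly separates the genotypes, a model that holds both can hardly tell them apart. With the mean level of the markers as a covariate, limma called 2 genes, Chd8 at −0.50 and Usp11 at −0.34. The other 18 did not pass (adjusted p = 0.32 to 0.68), Chmp2a among them at 0.22 (0.46). Fbln1, which is no marker of the list, was −0.16. Col1a2 is part of the covariate, so its value there is not given.

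Markers of the cells inside the cortex gave no called gene. Of 20 markers of mature oligodendrocytes and myelin, 14 were lower and 6 higher, at a median of −0.0348, and of 18 markers of precursors and newly formed oligodendrocytes 11 lay lower (median −0.0137). Medians were −0.0313 for 20 endothelial, −0.018 for 12 mural, 0.0167 for 18 microglial, −0.0265 for 19 excitatory and 0.00153 for 18 inhibitory neuron markers. Of 18 astrocyte markers 12 lay higher (median 0.049), 6 of them at an unadjusted p under 0.05, beside 929 of all 18657 genes. Striatal markers, which report the depth of a dissection, lay higher in 14 of 15 with a median of 0.111, but their mean level spread over 10.16 to 10.46 in WT mice and 10.18 to 10.63 in mutants, and none had an unadjusted p under 0.05. The striatal median was 0.00791 without HET replicate 1, 0.177 without HET replicate 2, 0.054 without HET replicate 5 and 0.071 without WT replicate 1. Choroid plexus markers stayed near the floor, at a mean of 7.84 to 7.90. Blood cell and hippocampal markers had medians of −0.0164 and 0.00855.

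**Figure D3:**
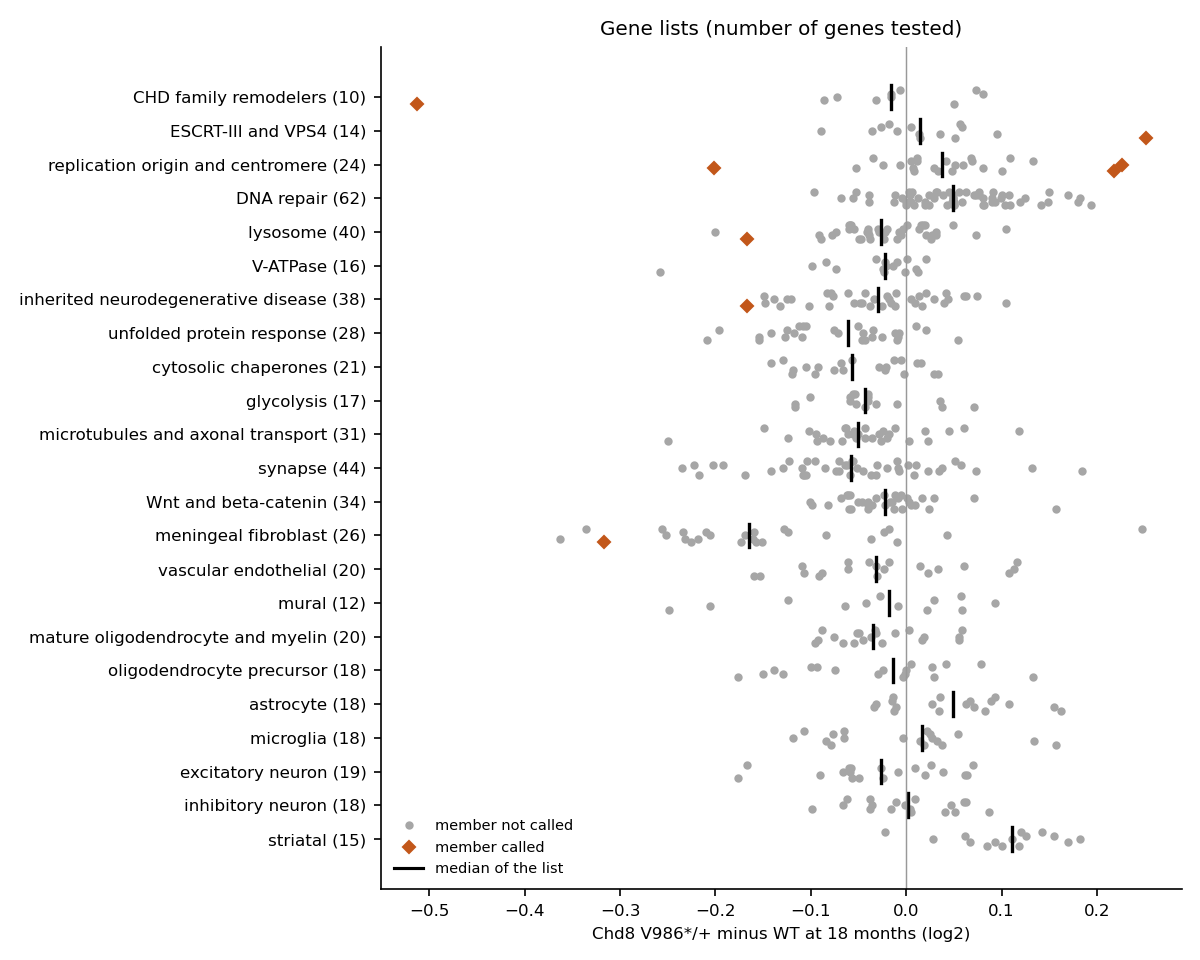
Difference between Chd8 V986*/+ and WT mice on the log2 scale for the members of 23 gene lists, with diamonds for called members and a bar at each median. The meningeal fibroblast list has the lowest median of those plotted, −0.165, and the striatal list the highest, 0.111, which is 0.00791 without HET replicate 1.

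DNA repair genes lay higher as a group of small differences. Of 62, 51 were higher and 11 lower, at a median of 0.0495. Of these, 18 were higher and 1 lower at an unadjusted p under 0.05, and none was called. Over all 18657 genes, 929 were higher and 1202 lower at that threshold. Their mean level was 9.05 to 9.08 in WT mice and 9.11 to 9.13 in mutants. Brca1, of recombination repair, lay at 0.19 (limma adjusted p = 0.077), Rrm2b, a subunit of the reductase that makes DNA precursors, at 0.18 (0.083) and the mismatch repair gene Mlh3 at 0.18 (0.085). The 4 repair genes named in the study's text lay higher in every shared litter: Rpa2, which coats single-stranded DNA, by 0.17 (SE 0.04, limma adjusted p = 0.13), the uracil glycosylase Smug1 by 0.15, the end-joining gene Xrcc4 by 0.12 and the crosslink repair gene Fancc by 0.10 (adjusted p = 0.20, 0.25 and 0.34). The study chose these 4 in part on libraries of this series, so their direction is not independent evidence.

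Lists of neuronal and stress functions leaned lower without a called member. At an unadjusted p under 0.05, 1202 of all 18657 genes were lower and 929 higher, beside which the counts below stand. Of 44 synapse genes 33 lay lower (median −0.0577), 19 of them at an unadjusted p under 0.05, among them the scaffold gene Mpp2 at −0.17 (limma adjusted p = 0.06) and the membrane protein gene Lingo1 at −0.24 (0.083). Of 31 genes of microtubules and axonal transport 25 lay lower (median −0.0506), with Arl2, of tubulin folding, at −0.25 (0.055). Genes of the unfolded protein response lay lower in 25 of 28 (median −0.0607), among them the transcription factor gene Xbp1 at −0.21 and the chaperone gene Hspa5 at −0.20 (0.31 and 0.50). Cytosolic chaperones lay lower in 17 of 21 (median −0.0568), glycolytic genes in 14 of 17 (−0.043) and subunits of the V-ATPase, the proton pump of lysosomes and synaptic vesicles, in 12 of 16 (−0.0217). Wnt and beta-catenin genes lay lower in 25 of 34, with a median of −0.0227 and 2 at an unadjusted p under 0.05. Under quantile normalization the medians of the synapse, microtubule, glycolysis and V-ATPase lists were −0.0307, −0.0316, −0.0249 and −0.0075, with 29 of 44 synapse genes lower. With the meningeal covariate those 4 medians were −0.0304, −0.0265, −0.0244 and −0.0032. The unfolded protein response and chaperone lists had −0.0306 and −0.0179 with it. The chaperone median was −0.0233 with the replicate block and −0.0226, −0.033 and −0.029 without HET replicate 2, HET replicate 3 or WT replicate 1, and that of the unfolded protein response ran from −0.0989 without WT replicate 3 to −0.0338 without WT replicate 1 (−0.040 without HET replicate 2). Ribosomal proteins, nuclear genes of the respiratory chain and cholesterol and fatty acid synthesis had medians within 0.02 of 0. At an unadjusted p under 0.05, 14 of 77 ribosomal genes were lower and 0 higher. The counts were 6 lower and 5 higher of 53 for the respiratory chain and 5 and 0 of 30 for cholesterol and fatty acid synthesis. The last list had a median of −0.0343 with the replicate block, and the first 2 had −0.0426 and −0.0404 with the meningeal covariate. The immediate early median was 0.0196, but −0.0977 with the replicate block and between −0.145 (without WT replicate 5) and 0.0657 (without WT replicate 4) as single mice were left out. Genes of the mitochondrial genome are not analysed here.

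Genes that the study's text names were looked up in these old, unexposed mice. In younger adults after oil the study reported Apc higher, Cnp, Mag and Pdgfra lower, and Mbp and Olig2 unaltered. It reported Kdr and Ptprb lower only in younger adult mutants exposed to DM. For these genes age or exposure differs, so their values here do not test those reports. For old mutants the study describes oligodendrocyte and neurodegenerative pathway signatures, which the single genes below do not test. Chd8, Usp11 and Egfl6 were called. Wars2, a mitochondrial tRNA synthetase gene, had 9.10, 9.05, 9.09, 9.02 and 9.11 in mutants and 8.81 to 8.96 with a median of 8.89 in WT mice, without overlap, and missed the threshold at 0.19 (SE 0.04, limma adjusted p = 0.065). Crlf2, a cytokine receptor gene, lay near the floor in both groups (7.55 to 7.61 in WT mice and 7.50 to 7.66 in mutants) and differed by −0.02 (SE 0.03, limma adjusted p = 0.84). Apc, of the complex that degrades beta-catenin, had 14.12, 14.12, 14.08, 14.06 and 14.16 in mutants and 13.87 to 14.05 in WT mice, also without overlap, and differed by 0.16 (SE 0.03, limma adjusted p = 0.066). The myelin genes Cnp, Mag and Mbp differed by −0.05, −0.03 and −0.03, the precursor gene Pdgfra by 0.0001 and the lineage factor Olig2 by −0.10 (limma adjusted p = 0.62 to 1.0). The endothelial receptors Kdr and Ptprb differed by −0.09 and −0.02 (SE 0.10 and 0.07, adjusted p = 0.79 and 0.92). Their differences within litters 1, 5, 6 and 7 had no common sign.

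The differences followed the GC content of transcripts across the table. Over the 9427 of 9585 genes with a mean value of 9 or more that had GC content and length records, the fifth with the lowest GC content (31.0 to 43.6%) had a median difference of 0.032, with 74.7% of genes higher, and the fifth with the highest (55.1 to 67.3%) a median of −0.047, with 19.9% higher. Spearman's rho across genes, which are not independent replicates, was −0.47 with GC content and 0.051 with gene length. By mouse, the deviation from the mean of all 11 had a rho with GC content of 0.42, 0.10, 0.26, 0.012, 0.17 and 0.13 in WT 1 to 6. In HET 1, 2, 3, 5 and 6 it was −0.46, −0.37, 0.15, −0.033 and −0.37, so 3 mutants stood apart and HET 3 lay among the WT mice. Between littermates it was −0.51 in litter 1, −0.10 in litter 5, −0.034 in litter 6 and −0.36 in litter 7. Transcripts of the 11 called lower genes had a median GC content of 54.7%, the 8 of the called higher genes with a value 47.2% and all genes 49.6%. After each library was smoothed on GC content and the smooth subtracted, limma called 5 genes: Chd8, Usp11, Chmp2a, Abca8a and Ddo. Chd8 and Usp11 stood at −0.51 and −0.34 and Chmp2a at 0.27 (adjusted p = 1.0e-03). The same correction with litter as a factor (replicate block) called Chd8, Usp11 and Chmp2a. Of the 19 called genes with a GC value, all kept their direction and 17 had an adjusted p under 0.1, while Grn went to −0.13 (0.11) and Zfp362 to −0.16 (0.16). After the correction 51 of 62 DNA repair genes were higher (median 0.0536), and 22 of 26 meningeal markers were lower (−0.163). Synapse genes were lower in 33 of 44 with a median of −0.0396, 12 of them at an unadjusted p under 0.05. In that fit 1950 of 18201 genes had such a p in either direction. Genes of microtubules and axonal transport were lower in 22 of 31 (−0.0275) and glycolytic genes in 12 of 17 (−0.0182). Wnt and beta-catenin genes were lower in 19 of 34 and mature oligodendrocyte genes in 10 of 20. The source of the GC pattern was not tested.

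**Figure D4:**
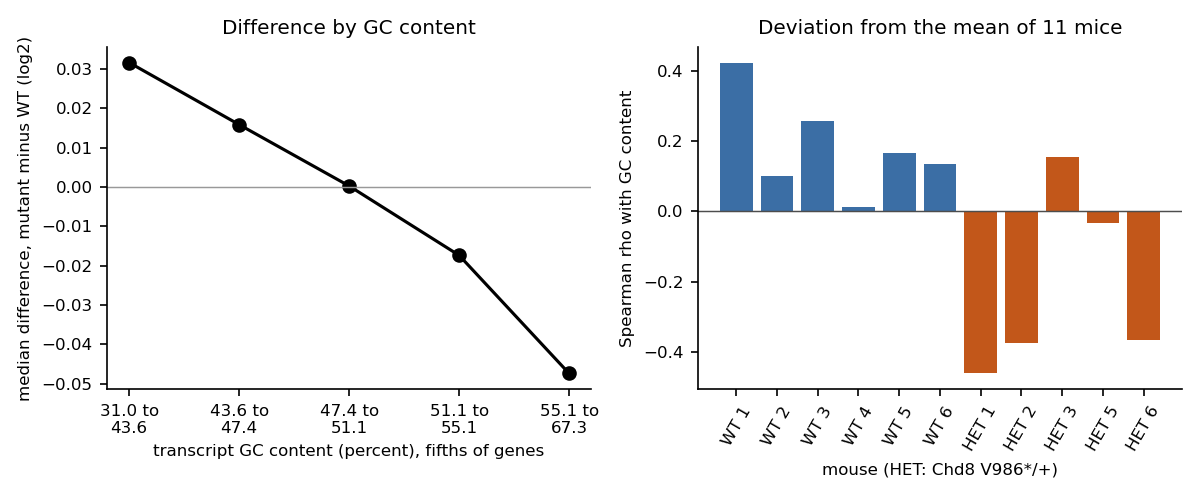
Left, median difference between Chd8 V986*/+ and WT mice (log2) in 5 equal groups of genes by transcript GC content. It goes down from 0.032 to −0.047. Right, Spearman's rho between GC content and the deviation of each mouse from the mean of all 11, where WT mice lie from 0.012 to 0.42 and mutants from −0.46 to 0.15.

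The genes called in old mice were then looked up in younger, other mice of the series, whose table was transformed separately. These were 12 month old males whose dams had been given oil (9 mice of each genotype) or DM (10 of each), and pups of postnatal day (PND) 5 from dams given oil, 12 WT and 10 mutants of both sexes. The limma fits there, with litter as a factor, called 3.18%, 5.01% and 1.66% of the genes tested there. All 20 genes were tested. Their sign was that of 18 months in 18 of 20 at 12 months after oil, in 17 after DM and in 15 at PND 5, against 52.0%, 49.3% and 54.7% of all genes tested. Called in that direction were 9, 10 and 5, and none was called in the opposite one. Chd8, Usp11 and Egfl6 were chosen by the study on several ages, these included, and are not independent evidence of agreement between them.

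Chd8, Chmp2a, Lyrm7 and Hjurp were called in all 3 comparisons of younger mice. Chmp2a differed by 0.26 and 0.22 at 12 months after oil and DM and by 0.29 at PND 5 (SE 0.03 each), close in size to the old mice. Lyrm7 gave 0.21, 0.16 and 0.20, and Hjurp 0.26, 0.19 and 0.21. Usp11 and Abca8a were called at 12 months, at −0.43 and −0.47 after oil and −0.41 and −0.48 after DM, and not at PND 5 (−0.12 and −0.16, limma adjusted p = 0.065 and 0.18). Kif4, called at 12 months with 0.53 and 0.55, lay at −0.04 in the pups. Egfl6 was called at 12 months with 0.38 and 0.44, BC003331 after oil with 0.18, and Ddo and Marcksl1 after DM with −0.37 and −0.21. Pan2 was called in pups alone of the 3 (0.25), with 0.22 and 0.15 at 12 months. No difference between ages was tested.

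The other called genes were called in none of the 3. Strip2 lay at −0.04, −0.03 and −0.17, Fbln1 at −0.04, 0.05 and 0.06, and Orc3 at 0.03, 0.07 and 0.08 (oil and DM at 12 months, then PND 5). Rcc2 lay at −0.05, 0.01 and −0.03 and Gprc5a at 0.08, −0.13 and 0.06 in the same order. Zfp362, at −0.06, −0.09 and −0.16, and Col1a2, at −0.08, −0.11 and −0.68, lay on the side of the old mice in each, as did Orc3. The Col1a2 value in pups was imprecise, with an SE of 0.34 against 0.08 and 0.07 at 12 months (limma adjusted p = 0.54, 0.37 and 0.43 in the same order). Grn also lay lower in all 3, at −0.08, −0.05 and −0.08 (limma adjusted p = 0.14, 0.39 and 0.33). Crlf2, which differed by −0.02 near its floor at 18 months, was called higher at 12 months, at 0.58 after oil and 0.51 after DM. Meningeal markers, lower in 24 of 26 in the old mutants, were lower in 9 of 24 tested at 12 months after oil (median 0.033) and in 17 of 24 after DM (median −0.11). Astrocyte markers lay higher in 17 of 18 and 16 of 18 there, beside 12 of 18 at 18 months.

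**Figure D5:**
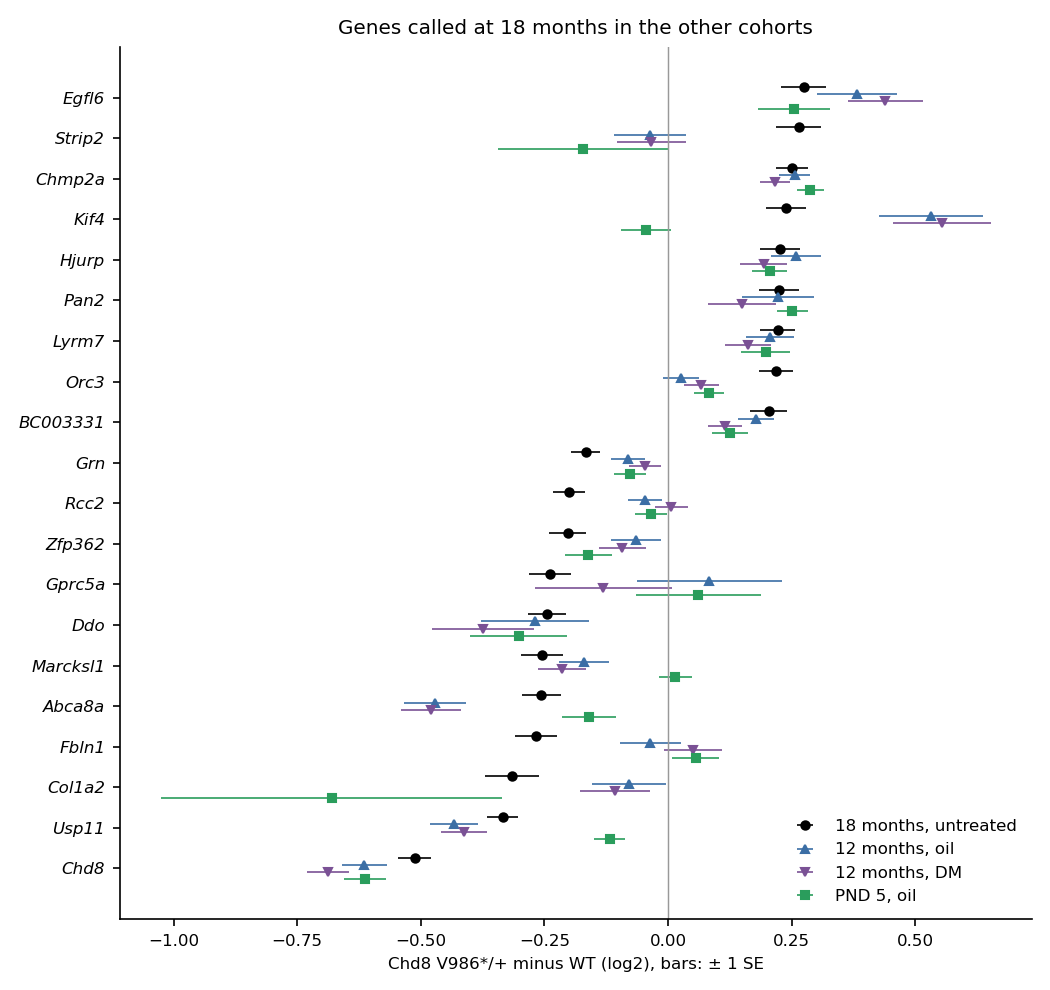
Difference between Chd8 V986*/+ and WT mice (log2, bars ± 1 SE) of the 20 genes called at 18 months, beside the same genes at 12 months after oil or DM and at PND 5 after oil. Chmp2a, Hjurp and Lyrm7 lie between 0.16 and 0.29 in all 4 comparisons, and Strip2 lies above 0 only at 18 months.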

How the data were processed

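Cortical polyA libraries were made with a stranded kit. Per the labels and the Methods, the authors used cutadapt 1.12 for trimming, STAR 2.5.2b for alignment (mm10) and Salmon for quantification, applied the variance-stabilizing transformation of DESeq2 and removed technical terms with limma. The deposited log2 values hold no counts. The Methods give a median depth over all samples, so the depth of each mouse is unknown. In the 18 month table the slope on litter rank is 0 for every gene, so a linear litter term had been removed and the model holds the same term, which leaves differences unchanged by the removal (tested on simulated data). Mice were grouped by their labels.

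limma 3.58.1 (R 4.3.3, statmod 1.5.0) with an intensity trend fitted genotype and litter rank, and a call is an adjusted p (Benjamini-Hochberg, 18657 varying genes) under 0.05. The younger mice were fitted with litter as a factor (and sex at PND 5) without genes in which same-sex littermates of both genotypes lay within 0.001 of each other in a litter. This filter also drops well expressed genes whose littermates were nearly equal, such as Apc at 12 months. Shares and list counts there are of the genes kept. Littermates pair the mice by the labels. Their residuals had a median correlation across genes of −0.17 over 6 littermate pairs (−0.11 over other pairs), negative in 5 and 0.44 in litter 5, the highest of all pairs. Labels do not say more of how mice were kept, so p-values measure the spread between these mice.

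Members and gene lists were chosen with earlier results of these data known. Named are Chd8, genes of the study's text, up to 15 called genes each way and called list members. Gene positions and GC content are from GENCODE M21 (23830 of 24528 symbols had one record) and promoters from RefSeq. Alternatives were 3 other litter terms, 9 mice of 4 litters, filters, scalings, variance models, sample weights and leaving out each mouse. GC correction and the meningeal covariate were chosen after seeing the data. Figures used Python 3.11.15 and matplotlib 3.10.9.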

Additional observations from a re-analysis of the deposited data

Results flagged for a closer look

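Of 68 groups of values checked for the named genes, 3 held a mouse that lay far from the rest of its group. Chance gives about 1 in 20, so this is no more than chance gives. Strip2 was 11.1 in WT 3, against 10.9 in the next WT mouse and 10.8 in the lowest. Usp11 was 12.1 in WT 3, against 12.05 in the next mouse and 12.02 in the lowest. Smug1, a DNA repair gene, was 9.53 in WT 4, against 9.4 in the next mouse and 9.33 in the lowest. In each case the distant mouse is the highest WT mouse, which for Strip2 and Smug1 is the one nearest to the mutants.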

How the results depend on the processing

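Chd8 kept its direction in 26 of 26 alternatives and its call in 24, and without any 1 mouse it ran from −0.54 to −0.49. With the replicate block it was −0.53, on all 11 mice and on the 9 mice of 4 litters (limma adjusted p = 0.051 for both). That block, which pairs littermates, called 0 genes (0 higher, 0 lower, in 0 lists) in both forms, leaving 4 residual degrees of freedom. Litter as a random effect called 38 (16 higher, 22 lower) and genotype only 75 (31 and 44, in 14 lists against 7 in the reported fit). Robust eBayes called 33 (21 lower, 11 lists) and no filter 12 (6 lower). Only 5 of those 12 were among the 20 reported genes: Chd8, Usp11, Chmp2a, Grn and Lyrm7. Quantile normalization called 14 (7 lower, 4 lists). GC correction called 5 (1 higher, 4 lower, 3 lists), the same with the replicate block 3 (1 and 2, 3 lists) and the meningeal covariate 2 (0 and 2, 2 lists). Without each mouse in turn 2 to 6 genes were called (0 to 2 higher, 2 to 5 lower, in 2 to 6 lists). Why fewer genes passed was not tested. Over the named genes and these alternatives, 529 values kept their side of the threshold, 292 of called genes no longer passed and 6 came to pass. The sign changed in 0 values of called genes, which were picked on these same mice, and in 27 of 7 genes not called (Pdgfra, Mbp, Ptprb, Mag, Crlf2, Olig2 and Kdr). Of the list medians, 842 moved by less than the spread between mice and 38 by more. The number of mice limits the precision, and counting error is unknown.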
